A study of Mus musculus with 6 samples.

Results

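Genes of the major histocompatibility complex (MHC) and of antigen presentation were examined in liver RNA from 6 mice. They were the 24 rows of the count table whose names start with H2- and 17 genes listed by name, among them B2m, Cd74, Ciita, Nlrc5, the Tap and Tapbp genes, the immunoproteasome genes and Cd80, Cd86 and Cd83. This gave 41 of 15454 genes, of which 26 belong to the class I arm, 11 to the class II arm and 3 to costimulation. The remaining one, H2-Ke6, lies in the MHC and carries its name but encodes a hydroxysteroid dehydrogenase, an enzyme of lipid metabolism. The male C57BL/6 mice, aged 8 to 10 weeks, had undergone warm ischemia of 75% of the liver followed by reperfusion. Vehicle was given to 3 of them (I/R) and ginsenoside Rk2, a saponin made from ginseng, to the other 3 (I/R+Rk2), 2 days before the operation and again at the onset of reperfusion. By the study's methods, ischemia lasted 1 h, livers were taken after 6 h of reperfusion, and the sequenced group was the high dose, 30 mg/kg. No sham-operated liver is analysed here, so the values compare injured livers with each other.

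Class I molecules consist of a heavy chain and the light chain β2-microglobulin and are found on nearly all nucleated cells, where they show peptides from the cytosol to CD8 T cells. The proteasome cuts these peptides, the TAP transporter carries them into the endoplasmic reticulum, and tapasin and its relatives load them. Class II molecules are made chiefly by dendritic cells, B cells and macrophages, travel with the invariant chain CD74 to the endosome, and show peptides from engulfed material to CD4 T cells. Transcription of class II genes is switched on by CIITA and that of class I genes is raised by NLRC5, both of which are induced by interferon-γ. Whether a T cell then responds depends on a second signal, for which CD80 and CD86 are the best known ligands. Whole liver was sequenced, so for every transcript here fewer cells of a type and less RNA per cell cannot be told apart.

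The arms moved in different directions. The 6 class II arm genes with enough counts for a test were lower in I/R+Rk2, the classical chains and Cd74 by log2 fold changes between -0.80 and -0.75, while 10 of the 25 tested class I arm genes were higher and 1, Nlrc5, was lower. The costimulatory ligands Cd80 and Cd86 fell by 2.91 and 1.80 on the log2 scale. A gene was called when its adjusted p was below 0.05 (edgeR quasi-likelihood test, Benjamini-Hochberg over 12411 genes), and 35 of the 41 genes had enough counts for the test. Of these 35, 19 were called, where 43.9% of all tested genes were. The called genes were 10 (28.6%) higher, where 20.3% of all tested genes were called higher, and 9 (25.7%) were lower, where 23.7% of all genes were. Over the whole set the share that fell was near that of all genes, and the falls lay in the class II arm, in costimulation and in Nlrc5. The median log2 fold change was 0.25 over the tested class I arm and -0.79 over the tested class II arm, against -0.01 over all genes. A fold change above 2 was passed by 3 of the genes, H2-DMb1, Cd80 and Cd86, which were lower, while 11.4% of all genes passed that limit downward and 3.17% upward. H2-DMb1 and Cd80 entered the test through the level of their I/R livers, since not all of their I/R+Rk2 livers reached the filter level, so their falls are no independent support for the direction. Without these genes 10 of 33 tested genes were higher and 7 lower, with 1, Cd86, past a fold change of 2, and the class II arm had 5 tested genes with a median of -0.79. Every I/R liver lay above every I/R+Rk2 liver in 9 genes and below in 12, and such separation was found in 30.3% and 27.1% of all tested genes.

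Both arms are known to be controlled through a shared module of upstream elements, and the upstream sequences of a few of the genes are shown for that reason. Promoter windows of RefSeq on GRCm38 were on hand for 30 of the 41 genes, 8 of the class II and 20 of the class I arm. The 160 bases before the start are printed 5′ to 3′ for 3 class II genes, for the light chain gene and for 3 heavy chain genes. Of these heavy chain genes, H2-Q7 and H2-Q10 were called higher and H2-K1 was not called. Capitals mark matches on either strand to CCAAT (the core of the Y box, bound by NF-Y), AGCAAC (the core of the X1 box, bound by RFX), TGACG (part of a cAMP response element, as in the X2 box), AANNGAAA (the core of sites for interferon regulatory factors) and GGGATTCCC (the NF-κB site of the class I enhancer). In H2-Aa, TGACG matches on both strands overlap, and no other matches do.
H2-Aa, chr17:34287824-34287983, minus strand: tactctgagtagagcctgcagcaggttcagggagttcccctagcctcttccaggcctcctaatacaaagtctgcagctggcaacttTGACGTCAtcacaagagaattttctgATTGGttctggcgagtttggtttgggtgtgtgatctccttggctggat
H2-Eb1, chr17:34305707-34305866, plus strand: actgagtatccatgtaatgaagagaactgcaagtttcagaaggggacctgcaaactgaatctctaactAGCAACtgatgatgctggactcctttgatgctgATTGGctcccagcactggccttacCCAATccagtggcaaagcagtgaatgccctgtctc
H2-DMb1, chr17:34153031-34153190, plus strand: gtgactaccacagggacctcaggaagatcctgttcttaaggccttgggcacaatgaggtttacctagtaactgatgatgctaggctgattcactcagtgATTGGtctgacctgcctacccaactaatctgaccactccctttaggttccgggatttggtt
B2m, chr2:122147527-122147686, plus strand: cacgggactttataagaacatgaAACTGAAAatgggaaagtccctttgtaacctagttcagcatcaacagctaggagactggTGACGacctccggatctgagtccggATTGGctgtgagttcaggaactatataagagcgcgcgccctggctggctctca
H2-K1, chr17:34000348-34000507, minus strand: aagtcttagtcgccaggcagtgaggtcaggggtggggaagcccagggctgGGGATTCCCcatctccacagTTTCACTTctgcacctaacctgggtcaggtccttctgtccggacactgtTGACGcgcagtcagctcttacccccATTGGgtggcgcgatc
H2-Q7, chr17:35438995-35439154, plus strand: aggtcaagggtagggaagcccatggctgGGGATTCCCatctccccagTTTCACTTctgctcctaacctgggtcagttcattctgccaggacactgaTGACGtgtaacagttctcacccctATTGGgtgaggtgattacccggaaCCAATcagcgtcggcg
H2-Q10, chr17:35469929-35470088, plus strand: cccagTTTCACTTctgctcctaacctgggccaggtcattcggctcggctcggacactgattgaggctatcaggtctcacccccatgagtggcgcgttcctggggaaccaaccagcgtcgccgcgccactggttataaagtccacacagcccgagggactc

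CCAAT was found in 7 of the 8 class II windows (250 bases before to 50 after the start) and in 14 of the 20 class I windows, compared with 37.4% of 32851 promoter windows. TGACG was found in 10 of the 20 class I windows and 1 of the 8 class II windows, compared with 20.8% of all. AGCAAC was found in 4 of the 8 class II windows, in 3 of the 20 class I windows and in 14.8% of all windows. AANNGAAA was found in 15 of the 20 class I windows, those of B2m, H2-K1, H2-Q7 and H2-Q10 among them, in 3 of the 8 class II windows and in 23.9% of all windows. GGGATTCCC matched in the windows of H2-K1, H2-D1, H2-Q6 and H2-Q7 and in 0.353% of all. A match is a run of letters and not a shown binding site. The part of these elements in the changes was not tested. The printed class II genes had log2 fold changes of -0.80 (H2-Aa), -0.76 (H2-Eb1) and -1.62 (H2-DMb1). The printed class I genes had 0.71 (B2m), 0.32 (H2-K1, not called), 0.66 (H2-Q7) and 0.42 (H2-Q10). The call of H2-Q10 was lost in 10 of 17 settings.

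In the class II arm, the α and β chains of I-A and the β chain of I-E were measured well. H2-Aa, the α chain of I-A (chr17:34282744-34287823, GRCm38, minus strand), had 22.2, 21.5 and 26.2 normalised counts per 1000000 (CPM) in the I/R livers and 13.03, 12.4 and 14.9 CPM in the I/R+Rk2 livers. H2-Ab1, its β partner (chr17:34257689-34269419), had 16.6, 16.7 and 19.3 CPM against 9.50, 9.56 and 12.4 CPM. H2-Eb1 (chr17:34305867-34316674), the β chain of I-E, had 17.05, 14.2 and 17.7 CPM against 9.50, 8.50 and 10.9 CPM. In each of these genes all 3 I/R livers were higher than all 3 I/R+Rk2 livers. The log2 fold changes were -0.80 (standard error 0.13) for H2-Aa, -0.75 (0.14) for H2-Ab1 and -0.76 (0.14) for H2-Eb1, with edgeR adjusted p-values of 0.00299, 0.00614 and 0.00585. C57BL/6 mice lack a working α chain of I-E, so the H2-Eb1 transcript is measured here without its protein partner.

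The invariant chain gene Cd74, whose product fills the peptide groove until the endosome is reached, followed closely. It had 52.8, 51.9 and 64.1 CPM in the I/R livers and 31.6, 28.3 and 38.1 CPM in the I/R+Rk2 livers, without overlap. Its log2 fold change was -0.79 (standard error 0.14, edgeR adjusted p = 0.00455). H2-Aa, H2-Ab1, H2-Eb1 and Cd74 kept their calls in 17 of 17 alternative settings each.

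The peptide exchange genes had at most 2.60 FPKM in any liver, well under the classical chains. H2-DMa, a chain of the DM molecule that exchanges the invariant chain fragment for a peptide, had 2.35, 1.99 and 2.43 CPM in I/R and 0.883, 1.48 and 1.41 CPM in I/R+Rk2. H2-DMb1, its partner chain, had 2.24, 2.61 and 2.59 CPM against 0.336, 0.947 and 1.17 CPM. Neither gene overlapped between the groups. H2-DMa changed by -0.84 on the log2 scale (standard error 0.27, edgeR adjusted p = 0.0407) and was not called in 11 of 17 settings, among them every fit that left out 1 liver (adjusted p between 0.0594 and 0.113). It also shares exon positions with Brd2. H2-DMb1 changed by -1.62 (standard error 0.41, edgeR adjusted p = 0.0167), or with an adjusted p of 0.0505 without I/R replicate 3. This gene passed the count filter mainly through the I/R livers, since 2 of 3 I/R+Rk2 livers reached the filter's level of 0.407 CPM, so its presence among the tested genes depended on its level in I/R. Of its 50-base stretches, 22.7% also occur in its copy H2-DMb2, and the sum of both genes changed by -1.23 (standard error 0.37, edgeR adjusted p = 0.0306).

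The other 5 class II arm genes had too few counts for a test. Ciita, the transactivator of the class II genes, had 8, 7 and 17 counts in I/R and 2, 8 and 0 counts in I/R+Rk2. In CPM these were 0.417, 0.273 and 0.678 against 0.0841, 0.237 and 0, so the groups did not overlap, at a depth where 3 counts amount to between 0.0888 and 0.184 CPM. Ciita shares exon positions with Dexi. H2-DMb2 had 0, 3 and 22 counts against 7, 22 and 3, H2-Oa between 2 and 6 against between 0 and 4, H2-Ob between 3 and 8 against between 4 and 6, and H2-Eb2 at most 4 in any liver. H2-Oa and H2-Ob encode the DO molecule, which restrains DM. No difference in these 4 genes was detectable at this depth.

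**Figure D1:**
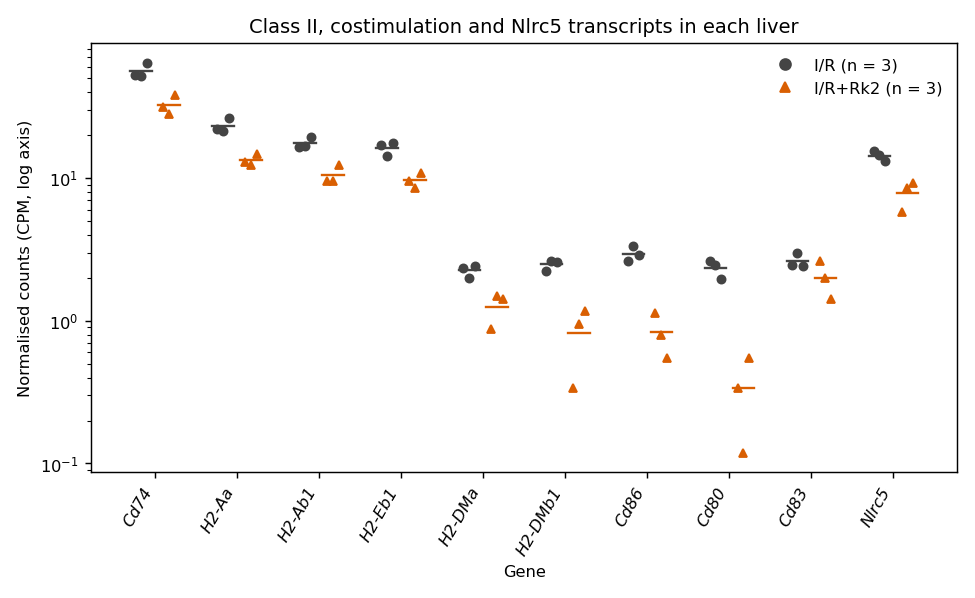
Normalised counts (CPM, log axis) of 10 genes of the class II arm, of costimulation and of Nlrc5 in each of the 6 livers, with circles for I/R, triangles for I/R+Rk2 and lines for the group means. In 9 of the 10 genes the 3 I/R livers all lie above the 3 I/R+Rk2 livers, and in Cd83 they overlap.

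The class II transcripts kept their proportions while they fell. By fragments per kilobase and 1000000 mapped fragments (FPKM), which allows genes to be compared with each other, H2-Ab1 stood at 0.748 ± 0.0116 times H2-Aa in I/R and at 0.778 ± 0.0554 times in I/R+Rk2 (SD, n = 3). H2-Eb1 stood at 0.670 ± 0.0573 and 0.685 ± 0.0251 times H2-Aa. Cd74 stood at 2.19 ± 0.0226 and 2.19 ± 0.127 times H2-Aa. All of these ratios overlapped between the groups. The summed level of the 3 chains was 49.3 ± 5.10 FPKM in I/R and 25.9 ± 2.65 FPKM in I/R+Rk2, with no overlap.

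In the class I arm, the light chain gene B2m (chr2:122147686-122153083) had the smallest p of the arm. It had 989, 1133 and 1094 CPM in the I/R livers and 1709, 1803 and 1747 CPM in the I/R+Rk2 livers, so that every liver of the Rk2 group stood far above the others. Its log2 fold change was 0.71 (standard error 0.10, edgeR adjusted p = 0.00179), and the call held in 17 of 17 settings. No 50-base stretch of its transcripts occurs in another gene.

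Heavy chains changed less and unequally. Of 14 heavy chain genes 13 were tested, and 5 were higher and 8 not called, with a median of 0.29. The classical chains H2-K1 and H2-D1, which carry most peptides to CD8 T cells, were not called. H2-K1 had 516, 625 and 532 CPM in I/R and 712, 629 and 751 CPM in I/R+Rk2, where the lowest Rk2 liver stood just above the highest I/R liver (log2 fold change 0.32, standard error 0.11, edgeR adjusted p = 0.0560). H2-D1 had 432, 492 and 479 CPM against 505, 464 and 497 CPM, with overlap (0.06, standard error 0.09, adjusted p = 0.589). H2-K1 reached the threshold in DESeq2, with upper-quartile scaling and without I/R replicate 2 (edgeR adjusted p = 0.0365), while H2-D1 turned to a negative value in the FPKM fits and when scaled by library size only. In FPKM the ratio of H2-K1 to H2-D1 was 1.54 ± 0.104 in I/R and 1.84 ± 0.0836 in I/R+Rk2, and the groups did not overlap. Their sum changed by 0.21 (standard error 0.11, edgeR adjusted p = 0.144).

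Among the H2-Q genes, which encode non-classical chains, 3 of 6 rose. H2-Q10, a secreted chain made by the liver (chr17:35470089-35474563), was the most abundant heavy chain by FPKM. It had 1093, 1493 and 1278 CPM in I/R and 1684, 1736 and 1746 CPM in I/R+Rk2, without overlap (log2 fold change 0.42, standard error 0.13, edgeR adjusted p = 0.0347). Its call was lost in 10 of 17 settings, including the fits without I/R replicate 1 or 3 or without any one of the I/R+Rk2 livers (adjusted p between 0.0671 and 0.1004). It made up 51.5% ± 1.79 of the heavy chain FPKM in I/R and 54.2% ± 1.38 in I/R+Rk2.

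H2-Q6 and H2-Q7 encode Qa-2, a chain with a lipid anchor. H2-Q7 had 41.3, 57.1 and 43.4 CPM in I/R and 76.2, 73.2 and 75.5 CPM in I/R+Rk2 (log2 fold change 0.66, standard error 0.13, edgeR adjusted p = 0.00676). H2-Q6 had 34.0, 40.4 and 33.8 CPM against 51.8, 48.3 and 45.8 CPM (0.43, standard error 0.10, adjusted p = 0.0140). The groups were apart in both. H2-Q7 was called in 17 of 17 settings and H2-Q6 in 11, its adjusted p being 0.0622 without I/R replicate 3. Reads of these genes can be shared between rows, as 32.0% of the 50-base stretches of H2-Q6, 26.4% of H2-Q7 and 19.0% of H2-Q10 also occur in other genes. Summed over H2-Q1, H2-Q2, H2-Q4, H2-Q6, H2-Q7 and H2-Q10, the change was 0.41 (standard error 0.13, edgeR adjusted p = 0.0349). H2-Q1 (0.25, adjusted p = 0.103), H2-Q2 (0.02, 0.960) and H2-Q4 (0.08, 0.533) were not called. H2-Q1 passed without I/R replicate 2 (edgeR adjusted p = 0.0463).

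Of the H2-T and H2-M genes, 2 of 5 tested rose. H2-T23 encodes Qa-1, a ligand of inhibitory receptors on natural killer cells, and had 87.4, 112 and 98.5 CPM in I/R and 128, 132 and 138 CPM in I/R+Rk2. H2-T22, a ligand of some γδ T cells, had 64.7, 76.7 and 72.1 CPM against 86.6, 96.8 and 104 CPM. In both genes the lowest Rk2 liver exceeded the highest I/R liver. The log2 fold changes were 0.42 (standard error 0.11, edgeR adjusted p = 0.0169) for H2-T23 and 0.43 (0.11, 0.0152) for H2-T22. H2-T23 lost its call without I/R replicate 3 or I/R+Rk2 replicate 2 (edgeR adjusted p between 0.0505 and 0.0619), and H2-T22 without I/R replicate 1 (0.0535). Of the 50-base stretches of H2-T22, 34.5% occur in other genes, and it shares exon positions with A930015D03Rik. H2-T3, H2-T24 and H2-M3 were present at low levels and not called (log2 fold changes 0.29, -0.52 and 0.22, edgeR adjusted p-values 0.436, 0.354 and 0.551). H2-T24 had 10 counts in I/R+Rk2 replicate 3 against between 48 and 81 in the others, and its log2 fold change without that liver was -0.16, and it reached -0.86 in another fit of 5 livers. H2-M2 had 2 counts in 1 I/R liver and none elsewhere.

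The class I-like genes outside the MHC both rose. Cd1d1, which presents lipids to natural killer T cells, a population rich in the liver, had 104, 107 and 108 CPM in I/R and 142, 161 and 167 CPM in I/R+Rk2. Its I/R livers lay close together and far below the others (log2 fold change 0.56, standard error 0.09, edgeR adjusted p = 0.00312), and the call held in 17 of 17 settings. Of its 50-base stretches 19.1% occur in other genes. Mr1, which presents vitamin B metabolites, had 3.18, 5.46 and 3.51 CPM against 5.59, 7.31 and 7.80 CPM, the groups just missing each other. It changed by 0.76 (standard error 0.24, edgeR adjusted p = 0.0402) and was not called without I/R replicate 1 or 3 or I/R+Rk2 replicate 2 or 3 (adjusted p between 0.101 and 0.123).

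**Figure D2:**
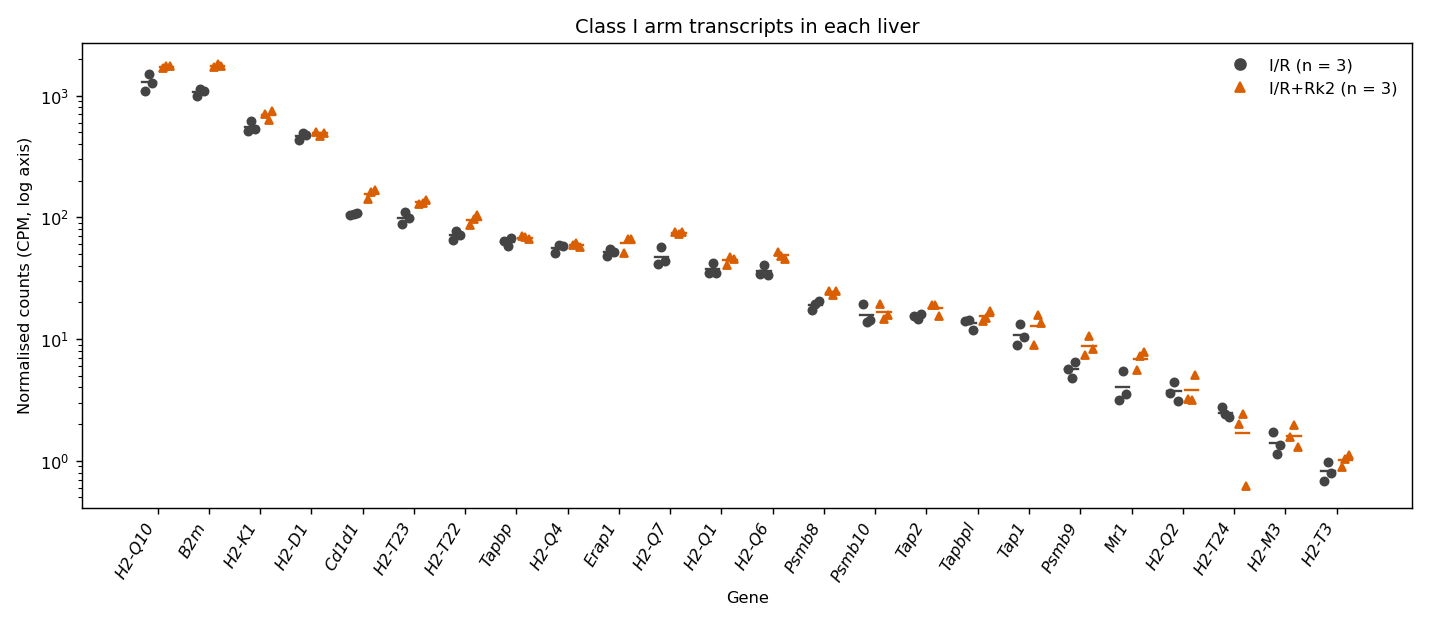
Normalised counts (CPM, log axis) of the tested class I arm genes other than Nlrc5 in each of the 6 livers, ordered by their mean in I/R, with circles for I/R, triangles for I/R+Rk2 and lines for the group means. B2m, Cd1d1 and H2-Q7 show the groups well apart, H2-D1 and H2-Q4 lie level, and H2-T24 has 1 low liver in I/R+Rk2 at 0.614 CPM.

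Among the genes that cut peptides, 2 of the 3 immunoproteasome genes were called higher, and those that carry and load peptides were not called. Of the immunoproteasome genes, Psmb8 had 17.3, 19.2 and 20.5 CPM in I/R and 24.6, 22.8 and 24.6 CPM in I/R+Rk2 (log2 fold change 0.34, standard error 0.10, edgeR adjusted p = 0.0329). Psmb9 had 5.63, 4.8 and 6.46 CPM against 7.44, 10.6 and 8.35 CPM (0.65, standard error 0.18, adjusted p = 0.0263). Both were higher in every Rk2 liver, while Psmb10 overlapped (0.06, adjusted p = 0.788). The call of Psmb8 was lost in 13 of 17 settings, including each fit that left out 1 liver (edgeR adjusted p between 0.0543 and 0.0940). That of Psmb9 was lost in 9, including those without I/R replicate 1 or 2 or I/R+Rk2 replicate 2 (0.0676 to 0.0864). Psmb9 and Tap1 share exon positions on opposite strands, and Psmb8 and Tap2 share theirs with Gm20496. In FPKM the immunoproteasome stood at 10.6% ± 0.940 of the constitutive catalytic subunits in I/R and 11.9% ± 0.403 in I/R+Rk2, with overlap.

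None of the 5 transport and loading genes was called, with log2 fold changes between 0.11 and 0.24. They were Tap1 and Tap2, the subunits of the transporter (edgeR adjusted p = 0.461 and 0.190), Tapbp, which encodes tapasin (0.319), Tapbpl, a peptide editor (0.259), and Erap1, which trims peptides (0.158). Erap1 passed without I/R+Rk2 replicate 1 (edgeR adjusted p = 0.0264) and with the length trend removed. Tapbp shares exon positions with Zbtb22 and Erap1 with Cast. Of the loading chaperones outside the set, 1 of 8 tested was called, Sec61b, a subunit of the translocon (0.33, edgeR adjusted p = 0.0206), while Ganab, Pdia3 and Calr were not (0.119, 0.514 and 0.534). Among the constitutive proteasome and PA28 genes 2 of 6 were higher, Psme1 (0.41, adjusted p = 0.00801) and Psme2 (0.33, 0.0116), which encode the PA28 cap induced by interferon-γ. The counts of both lists are to be read against 20.3% of all tested genes called higher.

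Nlrc5, the transactivator of the class I genes, was the class I arm gene called lower, next to 10 called higher and 14 that did not pass, H2-K1, H2-D1, Tap1 and Psmb10 among the latter. It had 15.5, 14.5 and 13.2 CPM in the I/R livers and 5.80, 8.47 and 9.21 CPM in the I/R+Rk2 livers. All 3 I/R livers were higher, and the log2 fold change was -0.88 (standard error 0.18, edgeR adjusted p = 0.00852). The call held in 17 of 17 settings. Nlrc5 (chr8:94434356-94527272) shares exon positions with 9330175E14Rik.

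The share of class I calls depended on whether library sizes were adjusted, on the kind of fit and on single livers. All 10 higher genes kept their calls with relative log expression or upper-quartile scaling. Of the 10 higher genes, 3 were called higher with library size alone (B2m, Cd1d1 and H2-Q7), 5 with the length trend removed, between 4 and 5 in the FPKM fits, and 5 without I/R replicate 1, I/R replicate 3 or I/R+Rk2 replicate 2. Without TMM factors, scaled by library size only, the median of all genes moved from -0.01 to -0.17, and 72.5% of all calls were lower compared with 53.9%. Relative to the median of all genes, the class I median was 0.26, and over the alternatives it ran from 0.12 in the unfiltered FPKM fit to 0.37 without I/R replicate 2. The class II median relative to all genes was -0.79, and ran from -0.42 in the unfiltered FPKM fit to -0.99 with the length trend removed. TMM factors lay between 1.01 and 1.14 in I/R and between 0.914 and 0.975 in I/R+Rk2. The log2 fold changes of the 10 genes called higher were positive in every alternative run.

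Ratios of levels within a library do not rest on that scaling, while FPKM sums compared between the groups rest on library size. The summed heavy chains reached 1644 ± 134 FPKM in I/R and 1872 ± 46.4 FPKM in I/R+Rk2. B2m stood at 0.753 ± 0.0441 times that sum in I/R and at 0.967 ± 0.0434 times in I/R+Rk2, with no overlap. The class II chains amounted to 3.03% ± 0.532 of the class I heavy chains in I/R and to 1.38% ± 0.135 in I/R+Rk2, again with no overlap.

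**Figure D3:**
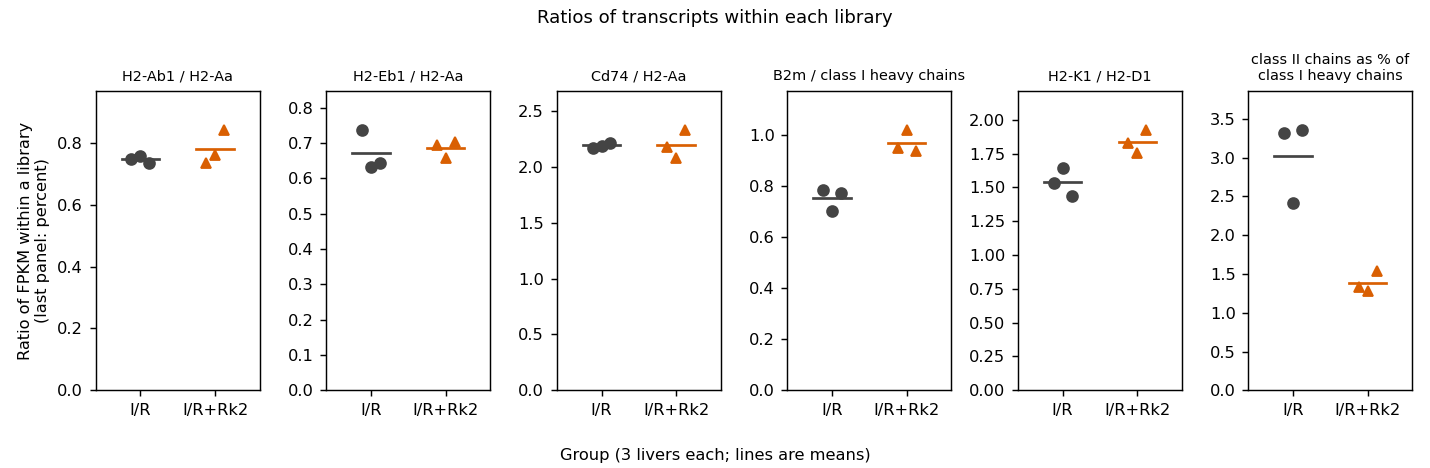
Ratios of FPKM within a library for 6 pairs of transcripts or sums, with 1 point per liver, lines for the means and axes that start at 0. The ratios among class II transcripts overlap between the groups, while B2m over heavy chains, H2-K1 over H2-D1 and class II over class I do not.

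Neighbours on the chromosome did not all move together. The set has 29 genes on chromosome 17, of which 24 were tested. Psmb9, Tap1, Psmb8 and Tap2 lie inside the class II region, between H2-DMb1 and H2-Ob, and their log2 fold changes lay between 0.21 and 0.65. Tap1 and Tap2 were not called, and Tap2 turned negative in the FPKM fits. The calls of Psmb8 and Psmb9 were lost in 13 and 9 of 17 settings. On one side of these genes H2-DMa and H2-DMb1 and on the other H2-Ab1, H2-Aa and H2-Eb1 were lower, with values between -1.62 and -0.75. H2-Ke6, between H2-K1 and H2-Oa, changed by 0.29 (edgeR adjusted p = 0.0627) and passed without I/R+Rk2 replicate 3 (0.0449), but 70.5% of its 50-base stretches occur in other genes.

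**Figure D4:**
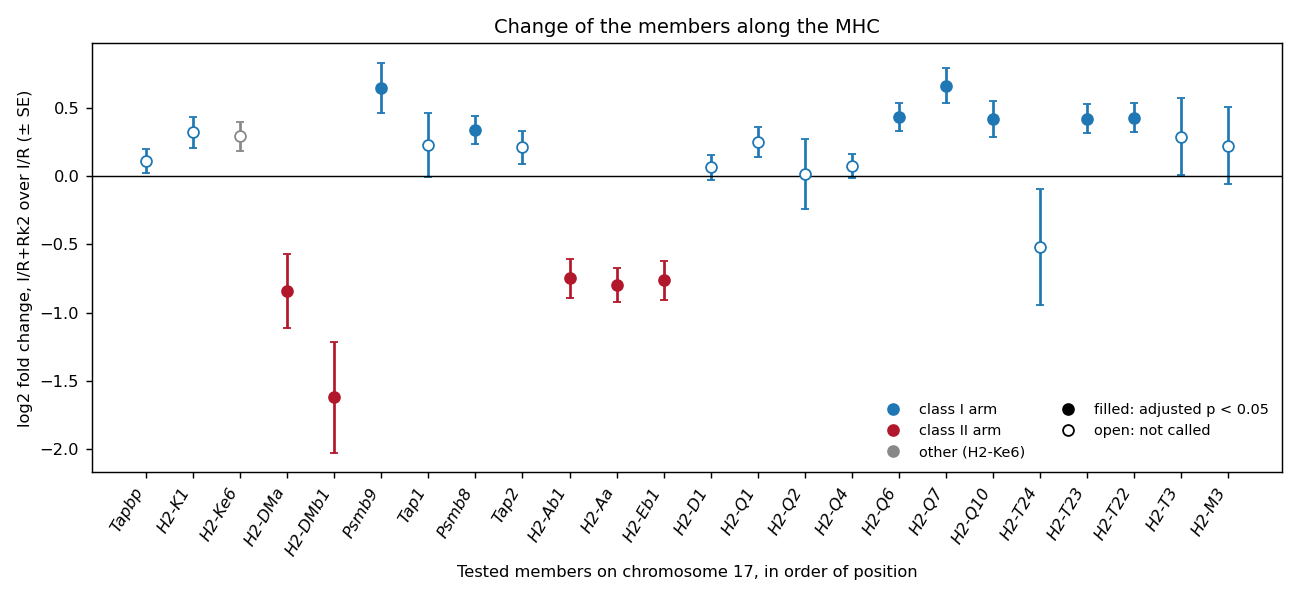
Log2 fold change of I/R+Rk2 over I/R with its standard error for the 24 tested genes on chromosome 17, evenly spaced in their order along the chromosome, with filled points for called genes. The class I arm genes Psmb9, Tap1, Psmb8 and Tap2 lie above 0 between class II genes that lie below -0.7.

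The costimulatory ligands showed the largest falls of the set. Cd80, which binds CD28 and CTLA-4 on T cells (chr16:38455561-38496335), had 50, 63 and 49 counts in I/R and 8, 4 and 9 counts in I/R+Rk2, or 2.61, 2.46 and 1.95 CPM against 0.336, 0.118 and 0.553 CPM. Cd86, which binds the same receptors (chr16:36603869-36666081), had 2.61, 3.32 and 2.87 CPM against 1.13, 0.799 and 0.553 CPM. Neither gene came near an overlap. The log2 fold changes were -2.91 (standard error 0.48, edgeR adjusted p = 0.00335) for Cd80 and -1.80 (0.29, 0.00336) for Cd86, and both held in the 14 settings in which they were tested. Cd80 reached the filter level in 1 of 3 I/R+Rk2 livers and so was tested mainly through its level in I/R. Cd83, a marker of mature dendritic cells that holds class II molecules at the surface, was not called (-0.38, standard error 0.27, edgeR adjusted p = 0.277), with 2.45, 3.005 and 2.43 CPM against 2.61, 1.98 and 1.41 CPM.

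Other genes of the exchange with T cells went in both directions. Of 9 tested, 6 were lower and 1 higher, with a median of -1.38, where 23.7% of all tested genes were lower and 20.3% higher. The 9 include 1 receptor, Havcr2, which encodes the inhibitory TIM-3 and fell by 3.36 (edgeR adjusted p = 0.00153). Not all of its I/R+Rk2 livers reached the filter level of 0.407 CPM. Havcr2 was thus tested through its level in I/R, and its fall is no independent support for the direction. Of the 8 others 5 were lower and 1 higher, with a median of -1.36. Among the 5, Cd40 stayed below the filter level of 0.407 CPM in every I/R+Rk2 liver. It was tested through its level in I/R, so its fall is no independent support for the direction. Cd274, the inhibitory ligand PD-L1, fell by 1.76 (edgeR adjusted p = 0.00448) and Icosl, the ligand of ICOS, by 1.34 (0.00436). The lower count of 6 became 3 with at least 10 counts required in every library and 2 in the filtered FPKM fits. Lgals9, which encodes galectin-9, a binding partner of TIM-3, rose by 0.85 (0.00227), from between 313 and 411 CPM to between 603 and 704 CPM.

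Endosomal genes that prepare class II peptides fell in part. Of 7 tested, 4 were lower and none higher, with a median of -0.32, where 23.7% of all tested genes were lower and 20.3% higher. Ctss, the cathepsin that trims the invariant chain, had 36.6, 40.98 and 47.6 CPM in I/R and 11.9, 10.1 and 9.95 CPM in I/R+Rk2 (log2 fold change -1.97, edgeR adjusted p = 0.000240). Lgmn, an asparaginyl endopeptidase, fell by 1.41 (0.000259), Tlr7, an endosomal sensor of RNA, by 1.69 (0.00593) and Ctsl, another cathepsin, by 0.32 (0.0290). Ctss and Lgmn fell further than the class II chains themselves, though the difference between genes was not tested.

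Interferon-γ signalling genes and activators of MHC genes showed 6 lower and 2 higher of 18 tested, with a median of 0.00. The chains of the interferon-γ receptor were both lower, Ifngr1 by 1.21 (edgeR adjusted p = 0.000266) and Ifngr2 by 0.76 (0.000927). Jak2, the kinase on the receptor, fell by 1.06 (0.00227), and Socs1, which restrains it, by 1.66 (0.00147). Ifng itself had too few counts for a test. Response genes of interferon-γ outside the MHC also had 6 lower and 2 higher of 18, with a median of -0.23. Icam1, an adhesion molecule, fell by 1.09 (edgeR adjusted p = 0.000834), Gbp2 by 1.31 (0.00110) and Gbp5 by 1.51 (0.0131), the last pair encoding guanylate-binding proteins. The Gbp genes did not share a direction, as Gbp4 was also lower (-1.22, edgeR adjusted p = 0.0322), Gbp6 rose by 1.07 (0.0250), and Gbp3, Gbp7, Gbp8 and Gbp9 were not called. The other gene called higher in this list was Igtp, an interferon-induced GTPase (0.63, edgeR adjusted p = 0.0152). Calls higher in these lists fell from 2 to 0 without I/R replicate 3 among the signalling genes and without I/R replicate 1 among the response genes. Across all genes 23.7% were lower and 20.3% higher, and the 6 lower and 2 higher of 18 in each list were read against those shares.

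Most tested markers of dendritic cells and all of monocytes were lower, like the class II genes, and most Kupffer cell markers were not called. B cell markers had too few counts for a test, so a fall in them could not be seen. The part of these cell types in the results was not tested. Of all tested genes 23.7% were called lower and 20.3% higher. Of 15 dendritic cell markers 7 were tested and 6 were lower, and their summed level was 21.03 to 24.9 CPM in I/R and 10.7 to 11.7 CPM in I/R+Rk2. Naaa (-2.01), Fscn1 (-0.60), Ccl22 (-2.42) and Ccr7 (-1.53) led them (edgeR adjusted p between 0.000563 and 0.0172). Ccl22, Ccr7 and Cd209a, all among the lower genes, stayed below the filter level of 0.407 CPM in every I/R+Rk2 liver. They were tested through their level in I/R, so their falls are no independent support for the direction. The count of 6 became 2 without I/R replicate 1 or I/R+Rk2 replicate 2, 3 without I/R replicate 3, and 2 with at least 10 counts required in every library or in the filtered FPKM fits. No B cell marker reached the test, with summed levels of 0.468 to 1.36 CPM and 1.26 to 1.72 CPM, and Cr2, Ighm and Ighd were not rows of the table. All 15 monocyte markers were lower, with a median log2 fold change of -3.32, led by Ccr2 (-4.41), Vcan (-5.61), Ms4a6c (-4.33) and F13a1 (-5.15). Their sum was 2035 to 2347 CPM against 1199 to 1279 CPM, most of it from Fn1, the fibronectin gene (-0.49), and without Fn1 it was 570 to 671 CPM against 77.4 to 120 CPM. Of 12 tested Kupffer cell markers 2 were lower, Cd163 (-1.38) and Cd5l (-0.97), and the sums overlapped, 149 to 206 CPM against 128 to 161 CPM. The log2 fold changes of all 12 were negative, and the number called lower became 7 with library size alone, 4 with the length trend removed, 4 when I/R+Rk2 replicate 1 was left out and 5 when I/R replicate 2 was.

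Markers of other cell types were counted in the same way, and are to be read against 20.3% of all tested genes called higher and 23.7% called lower. Of 12 tested neutrophil markers 10 were lower, with sums of 1142 to 1459 CPM and 150 to 312 CPM. Sinusoidal endothelial markers, which belong to cells that also carry MHC molecules, were mixed, with 4 of 13 higher, Clec4g (0.97) and Dnase1l3 (0.93) leading, and 4 lower, Lyve1 (-0.84) and Cdh5 (-1.17) leading, and the sums of 334 to 347 CPM and 288 to 369 CPM overlapped. Hepatocyte markers had 8 of 13 higher and 1 lower, with sums of 73619 to 85836 CPM and 109090 to 134964 CPM. Most of each sum came from Alb, the albumin gene, with 44262 to 52469 CPM in I/R and 68876 to 88052 CPM in I/R+Rk2. Without I/R replicate 1, I/R+Rk2 replicate 2 or I/R+Rk2 replicate 3 the higher count was 4, without I/R replicate 3 it was 5, and in the unfiltered FPKM fit it was 2. Among them Ttr rose by 1.06, Apoa2 by 0.56 and F9 by 0.52, while Hnf4a fell by 0.52 (edgeR adjusted p between 0.00132 and 0.00821). The part of hepatocyte transcripts in the rise of B2m, Cd1d1 and the heavy chains was not tested. Stellate cell markers had 1 of 11 higher and 4 lower, and of 14 T and NK cell markers 2 were tested and none was called. Cholangiocyte markers had 4 of 8 lower, and 1 of 8 in each fit that left out 1 liver other than I/R+Rk2 replicate 1. Among the 4, Cftr stayed below the filter level of 0.407 CPM in every I/R+Rk2 liver. It was tested through its level in I/R, so its fall is no independent support for the direction. Camp (neutrophil), Xlr (Kupffer cell), Trac and Ncr1 (T and NK cell) were not rows of the count table.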

How the data were processed

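RNA of 6 mouse livers was sequenced on the BGISEQ-500 platform from libraries of 250 ng RNA each (MGIEasy kit). According to the submitters' processing notes and the study's methods, the authors used FastQC 0.11.5, HISAT2 2.2.1, SAMtools and StringTie 1.3.3 with mm10; the annotation and the strand setting are not given in the sources used here. They deposited whole-number counts per gene, 16809613 to 35618074 per library, and FPKM values per gene. The counts look like StringTie estimates rounded up, which inflates low counts. Here counts were tested in R 4.3.3 with edgeR 4.0.16 (filterByExpr, TMM scaling, quasi-likelihood F test, Benjamini-Hochberg over 12411 genes, no covariate), first checked on simulated data. CPM are per TMM-scaled library. The 3-count floor covers counting error only, while standard errors and SDs include the variation between livers. FPKM were used for ratios, described with no test. Members and lists were chosen with earlier results of these data known, so no list was tested as a set. Every MHC gene was named. Genes named from the lists came mainly from the 4 tested genes with the smallest p of each list, not all of which were named. Others, such as Gbp4, Gbp6, Igtp, Cd40, Cd209a, Fn1 and Alb, were named after their values were seen. Gene positions are from GENCODE M21 and promoters from RefSeq, both GRCm38, the same build as mm10. No coordinates or sequence are given for Cd74. Each library is 1 liver. Within groups, counts differed by 31.4 to 74.8 chi-square per degree of freedom, so none was a repeat. Alternatives were other scalings, filters, a replicate block, removal of a length trend, DESeq2 1.42.0, limma 3.58.1 on log2(FPKM + 1) and log2(FPKM + 0.1), leaving out 1 liver, and summing close copies.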

Additional observations from a re-analysis of the deposited data

How the results depend on the processing

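The 35 tested genes were refitted under up to 17 alternatives. Of 580 pairs of gene and alternative, 475 kept direction and side of the threshold, 66 lost a call, 8 gained one and 31 turned sign. Of the 19 called genes, 10 were called in every alternative in which they were tested, 7 of them lower (H2-Aa, H2-Ab1, H2-Eb1, Cd74, Nlrc5, Cd80 and Cd86) and 3 higher (B2m, Cd1d1 and H2-Q7). The count of higher members, all in the class I arm, was 10, and became 3 with library size alone, 6 with the length trend removed (5 of the 10, and Erap1), and 4, 5 and 4 in the FPKM fits (log2(FPKM + 1) filtered and unfiltered, log2(FPKM + 0.1)). Leaving out 1 liver gave 5 to 10. The corresponding count over all genes, 2516, became 1320, and 1172, 1124 and 1148 in the FPKM fits, and 1640 to 2401 with 1 liver left out. Calls in the FPKM fits were 69.5%, 72.8% and 69.6% lower. The lower counts of members and of all genes stayed within 1.5 times, while those of some gene lists did not. Over all alternatives lower calls ran from 2 to 6 for dendritic cell markers, 2 to 7 for Kupffer cell markers, 1 to 4 for cholangiocyte markers (2 with the replicate block) and 2 to 7 for T cell ligands, and higher calls from 2 to 9 for hepatocyte markers. The causes were not tested.

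Sign turned only in uncalled genes. With library size alone the log2 changes were -0.0934 for H2-D1, -0.14 for H2-Q2, -0.0808 for H2-Q4, -0.0463 for Tapbp and -0.11 for Psmb10. In the filtered, unfiltered and log2(FPKM + 0.1) fits they were -0.0964, -0.0964 and -0.0968 for H2-D1, -0.11, -0.11 and -0.14 for H2-Q2, -0.0939, -0.0939 and -0.0969 for H2-Q4, -0.15, -0.15 and -0.17 for Tap2, -0.0905, -0.0905 and -0.0938 for Tapbp and -0.0527, -0.0527 and -0.0550 for Psmb10. With the length trend removed H2-Q2 gave -0.15 and Psmb10 -0.12, and with at least 10 counts in every library H2-Q2 gave -0.00243. With 1 liver left out H2-Q2 ran from -0.23 to 0.17 and Psmb10 from -0.0707 to 0.24.

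Livers with the same replicate number did not deviate together (correlations -0.0615, -0.00212 and -0.0649), so the numbers do not pair them. With a replicate block, 8 members were higher and 8 lower, as Psmb8 (edgeR adjusted p = 0.0625), Psmb9 (0.0623) and H2-DMa (0.0812) lost their calls; over all genes 2118 were higher and 2595 lower. Depth limits Ciita, H2-DMb2, H2-Oa, H2-Ob, H2-Eb2 and H2-M2, which could not be tested.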
